A study of Mus musculus with 4 samples.

Results

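The 4 chemokine ligand genes Ccl3, Ccl4, Ccl5 and Cxcl10 are described in single regulatory T (Treg) cells of mouse liver and spleen. They are 4 of the 32285 features counted in each library. They were chosen by earlier results of these same data, in which their levels, cell shares and co-expression were known, so those values are given as a description and no test is attached to them. The study sorted CD4+ cells carrying a Foxp3GFP tag from C57BL/6 mice, after enrichment on CD4 (L3T4) magnetic beads, and made 10x Genomics 5' gene expression libraries. The neonatal liver and neonatal spleen libraries came from 12-day mice with the genotype Foxp3GFP-Cre Rosa26loxP-Stop-loxP-YFP, as the design text gives it. The 7-week liver and 7-week spleen libraries came from 7-week mice, for which the Rosa26 reporter is not stated. The sort relies on the Foxp3 promoter driving GFP, and the number of mice behind a library is not stated in the labels. Each combination of age and tissue is represented by 1 library. Differences therefore lack replication, and a difference of age or of tissue cannot be told apart from one between libraries. The Rosa26 reporter, stated only for the 12-day mice, may also differ between the ages.

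Chemokines are small secreted proteins that guide cells bearing matching receptors. Ccl3, Ccl4 and Ccl5 are CC chemokines that bind receptors of the CC family, among them Ccr1 for Ccl3, and Ccr1 and Ccr3 for Ccl5. They are made by activated T cells, natural killer cells and macrophages, and draw in effector lymphocytes and myeloid cells. Cxcl10 is a CXC chemokine induced by interferons that binds Cxcr3, a receptor of type 1 effector T cells and of Treg cells with a related program. In the liver, these ligands are known for recruiting lymphocytes during inflammation.

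The CC members lie in 1 cluster and Cxcl10 lies elsewhere. In GENCODE vM21 on GRCm38, Ccl5 (ENSMUSG00000035042) spans chr11:83525778-83530518 on the minus strand, Ccl3 (ENSMUSG00000000982) spans chr11:83647844-83649355 on the minus strand, and Ccl4 (ENSMUSG00000018930) spans chr11:83662584-83664683 on the plus strand. Ccl3 and Ccl4 are 13.2 kb apart with no protein-coding gene between them, and 117 kb separate Ccl5 from Ccl3. Cxcl10 (ENSMUSG00000034855) spans chr5:92346638-92348889 on the minus strand, inside the extent of Art3, which is annotated on the opposite strand. Whether the counting used strand is not stated in the labels or file headers. No run of 50 bases in the annotated transcripts of the 4 genes occurred in a transcript of another gene.

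RefSeq promoter sequences (GRCm38.p6) matched 2 of the 4 genes, Ccl3 and Cxcl10, and the 250 bases before the annotated start are shown. The cells holding these 2 genes had different companion genes, described further on, and a link to the promoters was not tested. Capitals mark matches, on either strand, to GAAANNGAA, the core of the interferon-stimulated response element, and to GGANNTNCC, a pattern of NF-kB sites. The Ccl3 window is chr11:83649379-83649628 and the Cxcl10 window is chr5:92348890-92349139, both read 5′ to 3′ on the minus strand.
Ccl3: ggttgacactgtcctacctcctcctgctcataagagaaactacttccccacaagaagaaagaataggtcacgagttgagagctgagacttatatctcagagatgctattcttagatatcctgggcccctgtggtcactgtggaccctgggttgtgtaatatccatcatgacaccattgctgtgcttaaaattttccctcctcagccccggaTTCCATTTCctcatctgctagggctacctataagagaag
Cxcl10: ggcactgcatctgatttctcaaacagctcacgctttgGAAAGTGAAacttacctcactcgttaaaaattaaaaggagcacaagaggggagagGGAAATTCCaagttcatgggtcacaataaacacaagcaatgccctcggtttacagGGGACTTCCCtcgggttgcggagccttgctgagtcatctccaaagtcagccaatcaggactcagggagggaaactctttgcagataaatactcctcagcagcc
The Ccl3 window held 1 match to the interferon pattern, on the reverse strand 31 to 39 bases before the RefSeq start, which lies 23 bases upstream of the GENCODE start given above, and 0 matches to the NF-kB pattern. The Cxcl10 window held 1 interferon match, 205 to 213 bases before the start. It also held 4 NF-kB matches, which overlap in pairs: 1 pair is the same stretch matched on either strand, 150 to 158 bases before the start, and the other lies between 94 and 103 bases. Of 32851 windows of this length in the table, 7.13% held the interferon pattern and 12.2% held the NF-kB pattern. A match is a description of letters and not of binding.

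A barcode was used as a cell if it held 500 genes or more and if 10% or less of its UMIs (unique molecular identifiers, each a tagged RNA molecule) were mitochondrial. Neonatal liver gave 5668 such cells, neonatal spleen 6178, 7-week liver 2424 and 7-week spleen 6024. Where 4 values follow each other without library names, they keep this order. The cells held 31093860, 32848460, 7324692 and 20153678 UMIs. The median cell held 4444.5, 4540.5, 2663 and 2936.5 UMIs, so a gene is more easily detected in a neonatal cell. Foxp3 was detected in 73.3%, 69.5%, 60.1% and 63.5% of cells, and a UMI of Cd3e, a T cell receptor subunit, in 89.1% to 95.3%. Over all pairs of libraries, 206 cell barcodes were shared, of which 6 held Ccl5 in both libraries, and none was among the 10 highest cells of a member in both. Levels are UMIs summed over the cells of a library per 1000000 UMIs (CPM), with exact 95% Poisson intervals. Ratios have exact conditional binomial intervals and shares have exact Clopper-Pearson intervals. All of them cover counting error only.

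Ccl3, a ligand of Ccr1, was nearly confined to neonatal liver among these 4 libraries. It stood at 36.0 CPM (33.9 to 38.1, 1118 UMIs) in neonatal liver and at 2.01 CPM (1.55 to 2.56, 66 UMIs) in neonatal spleen. At 7 weeks it came to 2 UMIs in liver (0.273 CPM, 0.0331 to 0.986) and 3 UMIs in spleen (0.149 CPM, 0.0307 to 0.435). The neonatal liver was 17.9-fold higher than the neonatal spleen (14.0 to 23.3) and 132-fold higher than the 7-week liver (36.4 to 1089), a ratio that rests on 2 UMIs. The neonatal spleen was 13.5-fold higher than the 7-week spleen (4.42 to 67.1). Both 7-week libraries were at or under 3 UMIs, so no ratio between them is given and their order is not resolved.

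Ccl4, a CC ligand whose gene neighbours Ccl3, was also highest in neonatal liver. In neonatal liver it stood at 119 CPM (115 to 123, 3691 UMIs), followed by 7.21 CPM (6.33 to 8.19, 237 UMIs) in neonatal spleen, 5.46 CPM (3.90 to 7.44, 40 UMIs) in 7-week liver and 2.08 CPM (1.5 to 2.82, 42 UMIs) in 7-week spleen. Neonatal spleen and 7-week liver, the neighbours in that order, had overlapping intervals. The neonatal liver was 16.5-fold higher than the neonatal spleen (14.4 to 18.8) and 21.7-fold higher than the 7-week liver (15.9 to 30.5). In the spleen the ratio of neonatal to 7-week cells was 3.46 (2.49 to 4.93), and at 7 weeks the ratio of liver to spleen was 2.62 (1.66 to 4.14).

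Ccl5, a ligand of Ccr3 and Ccr1 that memory and effector T cells store and release, was present in all 4 libraries. It stood at 1490 CPM (1476 to 1503, 46319 UMIs) in neonatal liver, 236 CPM (231 to 242, 7763 UMIs) in neonatal spleen, 343 CPM (330 to 357, 2514 UMIs) in 7-week liver and 105 CPM (101 to 110, 2124 UMIs) in 7-week spleen. No intervals overlapped. Liver exceeded spleen 6.30-fold (6.15 to 6.46) in the neonatal pair and 3.26-fold (3.07 to 3.45) at 7 weeks. Neonatal cells exceeded 7-week cells 4.34-fold (4.17 to 4.52) in liver and 2.24-fold (2.14 to 2.35) in spleen. Unlike Ccl3, it was higher in 7-week liver than in neonatal spleen, libraries whose Ccl4 intervals overlapped.

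Cxcl10, the interferon-induced ligand of Cxcr3, had another order, with the 7-week liver highest. It stood at 46.1 CPM (41.4 to 51.3, 338 UMIs) there, at 9.08 CPM (7.81 to 10.5, 183 UMIs) in 7-week spleen, at 6.88 CPM (5.99 to 7.87, 214 UMIs) in neonatal liver and at 4.29 CPM (3.61 to 5.06, 141 UMIs) in neonatal spleen. The intervals of 7-week spleen and neonatal liver overlapped slightly. The 7-week liver was 5.08-fold higher than the 7-week spleen (4.23 to 6.12) and 6.70-fold higher than the neonatal liver (5.63 to 7.99). The 7-week spleen was 2.12-fold higher than the neonatal spleen (1.69 to 2.65), and the ratio of neonatal liver to neonatal spleen was 1.60 (1.29 to 2.0).

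**Figure D1:**
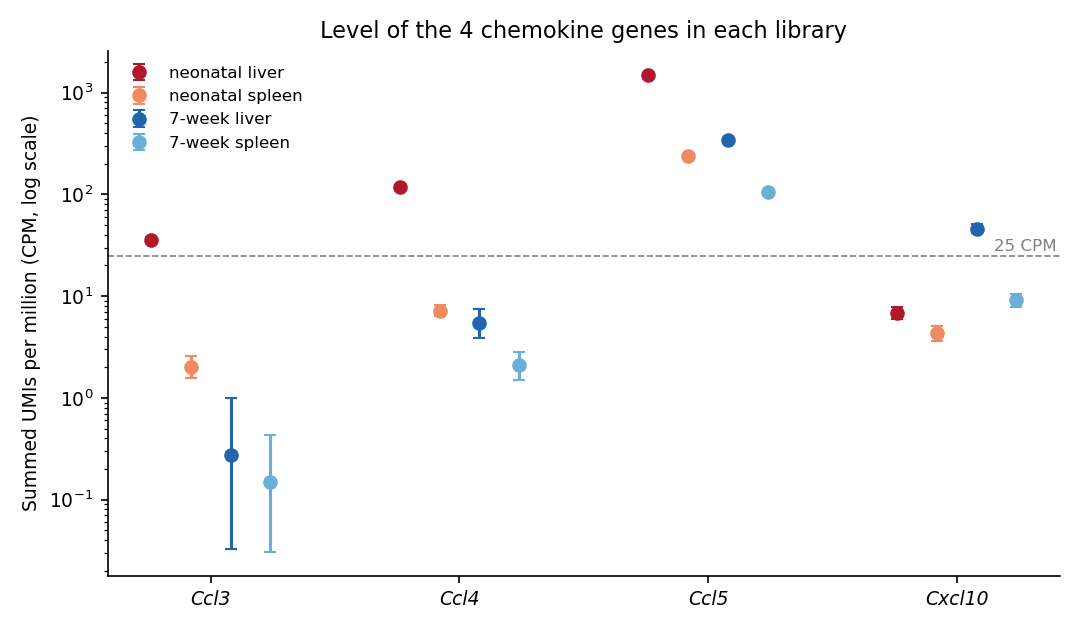
Level of each gene (UMIs per 1000000, log axis) in the 4 libraries, with bars for exact 95% Poisson intervals, which cover counting error only, and a dashed line at 25 CPM. Ccl3, Ccl4 and Ccl5 are highest in neonatal liver (36.0, 119 and 1490 CPM) and Cxcl10 is highest in 7-week liver (46.1 CPM).

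A gene was counted as different at a ratio of 2 or more where the higher of the 2 libraries reached 25 CPM, a rule that stands in for a test. Between neonatal liver and neonatal spleen, 3 of the 3 members above that level were higher in liver, beside 2.59% of the 4972 genes tested. Between 7-week liver and 7-week spleen, 2 of 2 were higher in liver, beside 1.41% of 5032 genes. Between neonatal and 7-week liver, 3 of 4 were higher in the neonatal library, beside 4.66% of 5232 genes, and 1 was lower, Cxcl10, beside 4.95%. Between the spleens 1 of 1, Ccl5, was higher in the neonatal library, beside 2.18% of 5144 genes. The members were chosen with these levels known, so nothing is read from the counts. The median log2 ratio over all tested genes was at most 0.07 in size in each comparison. Comparisons that share a library, such as the 2 that use neonatal liver, are not independent.

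The share of cells with a UMI separated Ccl5 from the other members. In neonatal liver 2590 cells held Ccl5, 45.7% of cells (44.4 to 47.0). The share was 15.4% (14.5 to 16.3) in neonatal spleen, 12.5% (11.2 to 13.8) in 7-week liver and 6.76% (6.14 to 7.42) in 7-week spleen. Ccl3 was found in 221 cells of neonatal liver (3.90%, 3.41 to 4.44), in 18 of neonatal spleen (0.291%), and in 2 and 3 cells of 7-week liver and spleen. Ccl4 was found in 224 cells of neonatal liver (3.95%, 3.46 to 4.49), 27 of neonatal spleen (0.437%), 11 of 7-week liver (0.454%) and 11 of 7-week spleen (0.183%). Cxcl10 was found in 94 cells of 7-week liver (3.88%, 3.14 to 4.72), 83 of 7-week spleen (1.38%), 89 of neonatal liver (1.57%) and 50 of neonatal spleen (0.809%).

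Because cells differed in depth, shares were also computed as their expected value at 1000 UMIs per cell, leaving out 515, 325, 154 and 90 shallower cells. Ccl5 then came to 32.5%, 8.68%, 8.67% and 3.90% over the 4 libraries. At equal depth the neonatal spleen and the 7-week liver held Ccl5 in nearly the same share of cells, although the summed level was higher in 7-week liver. Cxcl10 came to 0.427%, 0.242%, 2.08% and 0.597%. Ccl3 came to 1.46% and Ccl4 to 1.81% in neonatal liver, against 0.120% and 0.210% in neonatal spleen.

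Some UMIs in droplet data come from free RNA, so the same shares were taken in cells with UMIs of Ccr7 and Lef1, genes of resting recirculating T cells, which should hold little chemokine RNA. In neonatal liver, 957 such cells with a median of 4602 UMIs held Ccl3 in 1.04% (0.502 to 1.91), Ccl4 in 0.836% (0.362 to 1.64) and Ccl5 in 13.1% (10.99 to 15.4). All 3 shares were below those of all cells. In 7-week liver, 425 such cells with a median of 3046 UMIs held Cxcl10 in 1.41% (0.520 to 3.05) and Ccl5 in 6.12% (4.03 to 8.84). For Ccl4 at 7 weeks in liver the resting share was 0.471% (0.0570 to 1.69) against 0.454% of all cells, from 2 resting cells with a median of 10597 UMIs. At 1000 UMIs it was 0.0644%, against 0.292% of the other cells. At 1000 UMIs the resting cells of neonatal liver held Ccl5 in 6.03%, beside 32.5% of all cells there. Classes cut by detected genes are ranges that depend on depth and not cell types.

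Barcodes outside the filter bear on the same background. In neonatal liver 2387 barcodes were left out, 2344 of them for having under 500 genes, and 47.8% of them (45.8 to 49.9) held Ccl5 at a median of only 574 UMIs. At 500 UMIs per barcode the expected Ccl5 share was 43.4% in those barcodes and 27.6% in the cells used. In neonatal spleen the same pair of shares was 5.07% and 6.17%. The part of free RNA in the Ccl5 share of neonatal liver was not tested. In the cells used, 518 of the 2590 Ccl5 cells of neonatal liver held exactly 1 UMI and 745 held 20 or more.

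**Figure D2:**
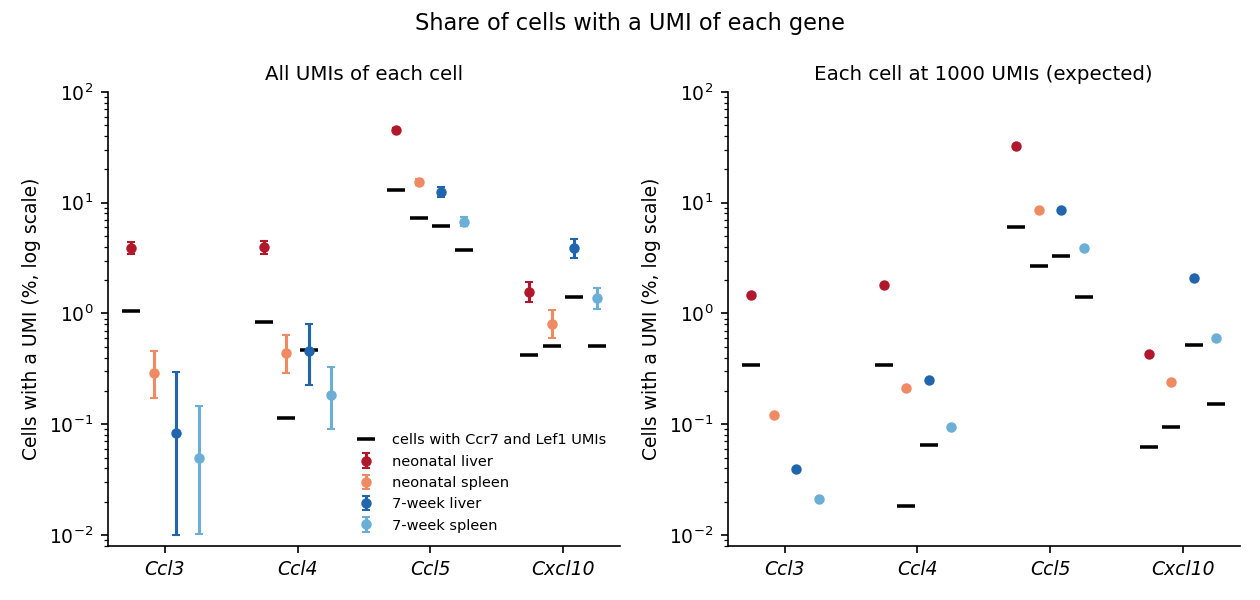
Share of cells with a UMI of each gene (percent, log axis), measured with exact 95% binomial intervals (left) and as the expected value at 1000 UMIs per cell (right), with black dashes for cells holding Ccr7 and Lef1 UMIs where that share is above 0. Ccl5 falls from 45.7% to 32.5% in neonatal liver at equal depth and stays above 6.03% in its resting cells.

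Ccl3 and Ccl4 were concentrated in a handful of cells. In neonatal liver the 10 highest cells held 54.7% of Ccl3 UMIs and 65.2% of Ccl4 UMIs, and 8 and 6 cells were enough for 50% of each. Of the 221 Ccl3 cells 131 held 1 UMI, while 7 cells with 20 or more UMIs held 49.9% of the total. Of the 224 Ccl4 cells 109 held 1 UMI, while 28 cells with 20 or more held 83.6%. In neonatal spleen the 10 highest cells held 87.9% of Ccl3 and 89.9% of Ccl4 UMIs, and 2 cells were enough for 50% of either gene.

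In neonatal liver 1 cell held 306 Ccl3 UMIs and 613 Ccl4 UMIs, 27.4% and 16.6% of the library's totals, among 14059 UMIs in all. It also held 58 Ccl5, 20 Cd3e, 8 Il10 and 11 Gzmb UMIs, no Foxp3 UMI, and 3 UMIs over 3 of the 12 macrophage markers. Without the highest cell of each library, the ratio of neonatal liver to neonatal spleen was 23.8 for Ccl3 and 20.9 for Ccl4. Without the 10 highest cells it was 67.0 for Ccl3 and 56.6 for Ccl4, on 8 and 24 UMIs in neonatal spleen, and Ccl3 in neonatal liver stood at 16.4 CPM, under the 25 CPM used for counting. The 10 cells left out came from 18 Ccl3 and 27 Ccl4 cells in neonatal spleen, but from 221 and 224 in neonatal liver. Their removal therefore took a larger share of the spleen UMIs, and the rise of the ratios follows from this. Without its 10 highest cells, neonatal liver stood at 16.4 CPM for Ccl3 and 41.5 CPM for Ccl4. Both levels were above those of neonatal spleen with all its cells, 2.01 and 7.21 CPM.

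Ccl5 was spread over many more cells. In neonatal liver the 10 highest cells held 4.46% of Ccl5 UMIs, and 312 cells, 5.50% of all cells, held 50%. The median Ccl5 cell held 7 UMIs there, against 3 in neonatal spleen and in 7-week liver and 2 in 7-week spleen. In neonatal spleen the 10 highest cells held 11.8%, and at 7 weeks they held 20.2% in liver and 29.1% in spleen, with 88, 37 and 33 cells enough for 50%. As a share of the Ccl5 cells themselves, the cells enough for 50% were 12.0%, 9.27%, 12.3% and 8.11% over the 4 libraries, so this share was nearly the same in neonatal and 7-week liver.

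By the share of UMIs in the 10 highest cells, which depends on how many cells hold a gene, Cxcl10 lay between these patterns. As a share of the Cxcl10 cells themselves, the cells enough for 50% were 13.5%, 8%, 9.57% and 14.5% over the 4 libraries. This was above the Ccl5 share in neonatal liver and 7-week spleen and below it in the other libraries. In 7-week liver the highest cell held 39 UMIs, the 10 highest held 53.0% of the total and 9 cells were enough for 50%. In neonatal liver 1 cell held 49 of the 214 UMIs, and in neonatal spleen 1 cell held 43 of 141. Without the 10 highest cells the 7-week liver level was 21.9 CPM, against 3.61 CPM in neonatal liver, and no longer reached 25 CPM.

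**Figure D3:**
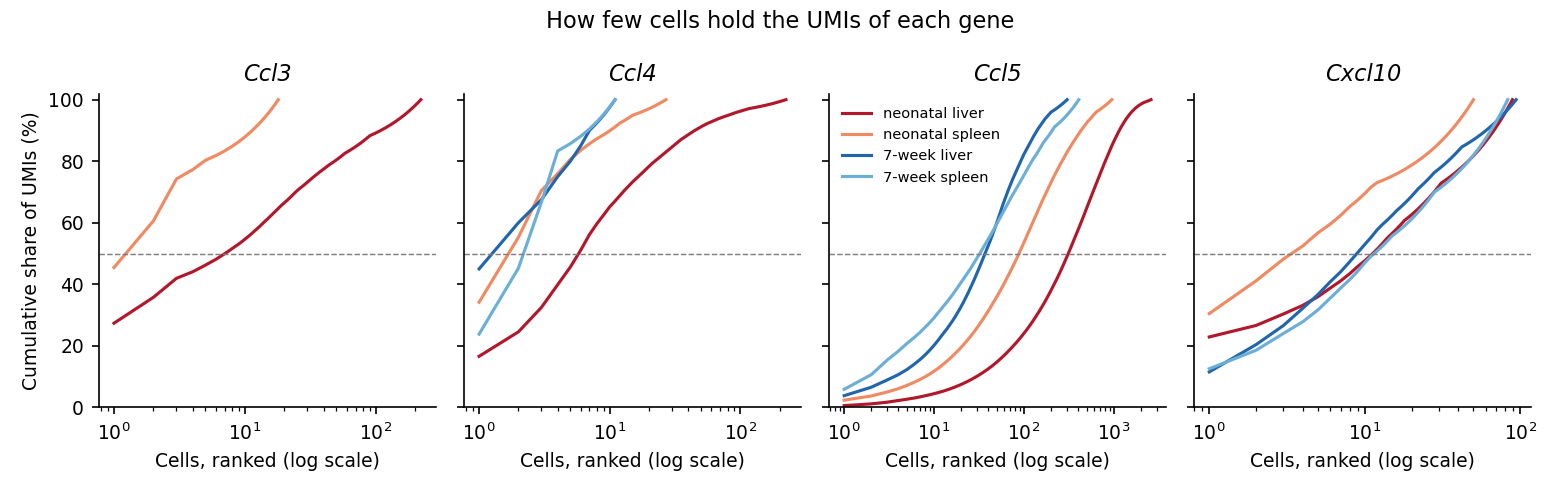
Cumulative share of a gene's UMIs (percent) over cells ranked from highest to lowest (log axis), for each library with at least 20 UMIs of the gene, with a dashed line at 50%. Ccl4 reaches 50% within 6 cells in neonatal liver, while Ccl5 needs 312 cells there and 33 in 7-week spleen.

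The split by a Foxp3 UMI rested on few cells for Ccl3 and Ccl4. In neonatal liver the 1511 cells without a Foxp3 UMI held 495 of 1118 Ccl3 UMIs (98.7 CPM against 23.9 CPM in cells with one) and 1272 of 3691 Ccl4 UMIs (254 against 92.8 CPM). Of these, 400 Ccl3 UMIs lay in 2 cells and 1002 Ccl4 UMIs in 3 cells. Without the 10 highest cells of each gene, an alternative added after seeing the data, Ccl3 stood at 19.01 CPM in cells without and 15.8 CPM in cells with a Foxp3 UMI, and Ccl4 at 54.1 and 39.0 CPM. The share of cells went the other way: 4.62% of cells with a Foxp3 UMI and 1.92% of cells without held Ccl3. At 1000 UMIs these shares were 1.56% and 1.13%. Cells without a Foxp3 UMI were shallower, with a median of 2967 UMIs against 5035, and the part of depth in this split was not tested. Among cells with a Foxp3 UMI alone, Ccl3 in neonatal liver missed the 25 CPM used for counting, and its ratio to neonatal spleen was 21.2.

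For Ccl5 in 7-week liver, 966 cells without a Foxp3 UMI held 1281 of the 2514 UMIs, 535 CPM against 250 CPM in cells with one. Among cells with a Foxp3 UMI alone, the 7-week ratio of liver to spleen for Ccl5 was 2.14, down from 3.26. In neonatal liver Ccl5 was at 1530 CPM in cells with a Foxp3 UMI and 1277 CPM in cells without. Cxcl10 in 7-week liver was at 63.3 CPM in cells with a Foxp3 UMI and 10.9 CPM in cells without, and 312 of its 338 UMIs were in the former. Without the 10 highest Cxcl10 cells, all of which held Foxp3, these levels were 27.3 and 10.9 CPM.

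Cycling cells held less of the CC ligands per UMI in neonatal liver. The 1285 cells with a UMI of Mki67 or Top2a, genes of dividing cells, held Ccl4 at 31.3 CPM against 169 CPM in other cells, Ccl3 at 12.9 against 49.1 CPM, and Ccl5 at 862 against 1847 CPM. In neonatal spleen Ccl4 went the other way, at 13.0 CPM in 883 such cells and 5.47 CPM in others, and 2 of those cells held 86 of their 99 Ccl4 UMIs. Leaving such cells out of both libraries, the ratio of neonatal liver to neonatal spleen for Ccl4 was 30.8. In neonatal liver their share with a Ccl5 UMI was 46.1% against 45.6%, at median depths of 7473 and 4119 UMIs, and 27.7% against 34.0% at 1000 UMIs. The shares with Ccl3 were 4.05% against 3.86% and those with Ccl4 were 4.36% against 3.83%, at the same depths. At 1000 UMIs they were 1.13% against 1.56% and 1.40% against 1.93%. In 7-week liver Cxcl10 was at 64.9 CPM in 256 such cells and 42.7 CPM in the others, and at 17.6 and 22.7 CPM without the 10 highest cells.

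In the neonatal libraries, Ccl4 was found more often in cells with Ccl3 than in cells without it. In neonatal liver 95 of the 221 Ccl3 cells (43.0%, 36.4 to 49.8) held Ccl4, against 2.37% of cells without Ccl3. At 1000 UMIs the shares were 35.6% and 1.30%. The 95 cells held 80.4% of all Ccl4 UMIs, and 4 cells were among the 10 highest of both genes. In neonatal spleen 7 of 18 Ccl3 cells (38.9%, 17.3 to 64.3) held Ccl4, against 0.325% of the others. In 7-week liver and spleen none of the 2 and 3 Ccl3 cells was among the 11 Ccl4 cells of each library, numbers too small to show an association.

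Most Ccl3 and Ccl4 cells of the neonatal libraries also held Ccl5. In neonatal liver 203 of 221 Ccl3 cells (91.9%, 87.4 to 95.1) and 207 of 224 Ccl4 cells (92.4%, 88.1 to 95.5) held it, against 43.8% of the cells without Ccl3 and 43.8% of those without Ccl4. At 1000 UMIs the values were 82.2% and 82.4% against 31.8% and 31.6%. Read the other way, 7.84% of Ccl5 cells held Ccl3 and 7.99% held Ccl4, and 2225 of 2590 Ccl5 cells (85.9%) held no other member. In neonatal spleen Ccl5 was in 17 of 18 Ccl3 cells and 21 of 27 Ccl4 cells. At 7 weeks it was in 7 of 11 Ccl4 cells of liver and 3 of 11 of spleen, and in 2 of 2 and 1 of 3 Ccl3 cells.

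Cxcl10 showed no detectable link with Ccl3 or Ccl4 in either direction. In neonatal liver 3 of 89 Cxcl10 cells held Ccl3 (3.37%, 0.701 to 9.54) and 4 held Ccl4 (4.49%, 1.24 to 11.1), against 3.91% and 3.94% of the other cells, a difference not detectable at this number of cells. In 7-week liver 0 of 94 Cxcl10 cells held Ccl3 or Ccl4, which allows a share of up to 3.19% (3 counts of 94), while only 0.0858% and 0.472% of the other cells held them, so that library cannot show a link. There 16 of 94 held Ccl5 (17.0%, 10.1 to 26.2), against 12.3% of the other cells. At 1000 UMIs these shares were 9.02% and 8.66%. In neonatal liver 52 of 89 Cxcl10 cells held Ccl5 (58.4%, 47.5 to 68.8), against 45.5% of the others. At 1000 UMIs they were 49.1% and 32.5%. In neonatal spleen 15 of 50 held it (interval 17.9% to 44.6%), against 15.2%, and 11.2% against 8.68% at 1000 UMIs. In 7-week spleen 8 of 83 held it (9.64%, 4.25 to 18.1), against 6.72%, and 6.38% against 3.88% at 1000 UMIs. All 4 genes were detected together in 3 cells, all of neonatal liver.

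**Figure D4:**
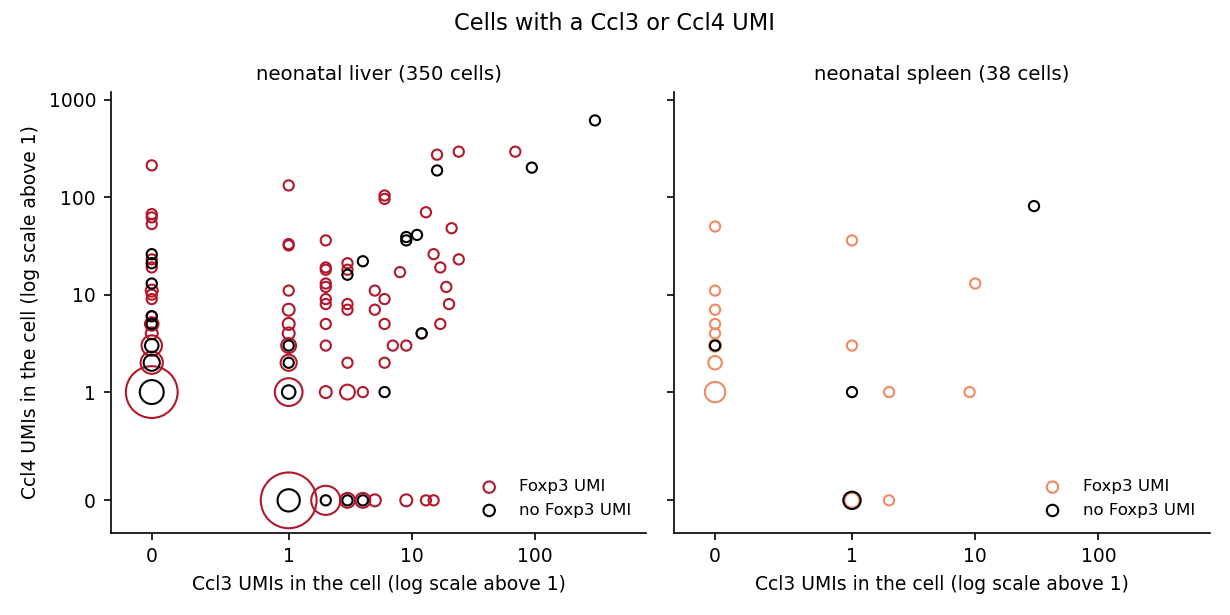
Ccl3 UMIs against Ccl4 UMIs in each cell holding either gene (axes linear to 1 and log above), for neonatal liver (350 cells) and neonatal spleen (38 cells), with circle area growing with the number of cells at a point and black circles for cells without a Foxp3 UMI. The highest cell of neonatal liver, with 306 Ccl3 and 613 Ccl4 UMIs, has no Foxp3 UMI, and most cells lie at 1 UMI of 1 gene.

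Companion genes were described by the share of cells holding them at 1000 UMIs, with and without the member, in the library with the most cells holding it. The cells are of 1 library and no test was made. Among 217 Ccl3 cells and 4936 other cells of neonatal liver, the median ratio of shares was 2.78 over cytotoxic and type 1 genes, 2.33 over early genes of receptor signalling, 1.37 over effector Treg genes, 1.32 over interferon genes and 0.199 over resting genes, for genes found in at least 1% of cells. Of the 8 cytotoxic and type 1 genes, 6 were at least 2-fold higher, as were 8 of 13 receptor signal genes, 3 of 13 effector Treg genes and 0 of 8 interferon genes, beside 2.88% of 10280 genes. Of the 7 resting genes 6 were at least 2-fold lower, beside 7.63% of all genes.

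Named companions of Ccl3 included Nkg7, a cytotoxic granule protein, at 67.4% against 21.6%, and Prf1, the pore-forming perforin, at 4.0% against 0.944%. Tbx21, the transcription factor T-bet of the type 1 program, was at 9.02% against 2.81%. Il10, an anti-inflammatory cytokine of effector Treg cells, was at 12.1% against 2.65%, and the inhibitory receptors Lag3 and Havcr2 were at 23.8% against 7.79% and at 1.84% against 0.197%. Of genes induced by the T cell receptor, Egr2 was at 3.92% against 0.718% and Nr4a1 at 13.4% against 5.01%, and the transcription factor Irf8 was at 18.8% against 6.41%. Klf2, a transcription factor of resting T cells, was at 7.22% against 36.3%, Lef1 at 5.96% against 15.3%, and Il7r, the interleukin-7 receptor, at 5.88% against 14.7%. The interferon genes Isg15, Gbp2 and Isg20 were at 6.74%, 11.6% and 12.0% against 5.13%, 7.66% and 7.96%.

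Ccl4 cells, of which 95 of 224 also held Ccl3, had similar counts of companions. Among 215 Ccl4 cells, 6 of 8 cytotoxic and type 1 genes, 8 of 13 receptor signal genes, 4 of 13 effector Treg genes and 0 of 8 interferon genes were at least 2-fold higher, beside 2.46% of all genes. All 7 resting genes were at least 2-fold lower, beside 8.80%. Il10 was at 13.6% against 2.58%, Lag3 at 25.6% against 7.72%, Havcr2 at 1.94% against 0.194%, Egr2 at 4.36% against 0.701%, Nr4a3 at 3.48% against 0.615% and Irf8 at 21.3% against 6.31%. Prf1 was at 5.11% against 0.896%, Nkg7 at 69.2% against 21.6% and Tbx21 at 9.10% against 2.81%. S1pr1, which lets T cells leave tissue, was at 3.48% against 13.7%.

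Beside Ccl5, more cytotoxic genes than receptor signal genes passed 2-fold. Among 2309 Ccl5 cells and 2844 others of neonatal liver, 7 of 8 cytotoxic and type 1 genes, 6 of 13 effector Treg genes, 2 of 13 receptor signal genes and 0 of 8 interferon genes were at least 2-fold higher, beside 2.58% of all genes. Of the resting genes 6 of 7 were at least 2-fold lower, beside 2.61%. Ifng, the type 1 cytokine interferon gamma, was at 3.47% against 0.726%. The granzyme genes Gzma and Gzmk were found in 38 and 43 of the Ccl5 cells, 1.65% and 1.86% with all UMIs counted, against 0.492% and 0.0352% of the others. Il10 was at 4.89% against 1.54% and Lag3 at 13.6% against 4.30%. Nr4a2, an early gene of receptor signalling, was at 2.43% against 1.08% and Irf8 at 10.0% against 4.44%, while Egr2 was at 1.09% against 0.658%.

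Cxcl10 cells of 7-week liver had interferon companions. Among 93 Cxcl10 cells and 2177 others, 8 of the 9 interferon genes found in at least 1% of cells were at least 2-fold higher, with 1 of 6 cytotoxic and type 1 genes, 2 of 12 effector Treg genes and 1 of 11 receptor signal genes, beside 5.18% of 9329 genes. Of the resting genes 3 of 7 were at least 2-fold lower, beside 14.6%. Isg15, a ubiquitin-like protein induced by interferon, was at 36.1% against 7.94%, Ifit1 at 20.9% against 3.99% and Ifit3 at 16.2% against 2.32%, both antiviral interferon-induced genes. Irf8 was at 10.2% against 1.61% and Prdm1, the effector regulator Blimp-1, at 8.33% against 2.21%. Il7r was at 27.8% against 24.0%, so the resting genes were not uniformly lower as they were beside the CC ligands. The Cxcl10 window printed above holds an interferon pattern and NF-kB patterns, and the Ccl3 window holds the former alone. Whether these patterns bear on the companion genes was not tested.

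**Figure D5:**
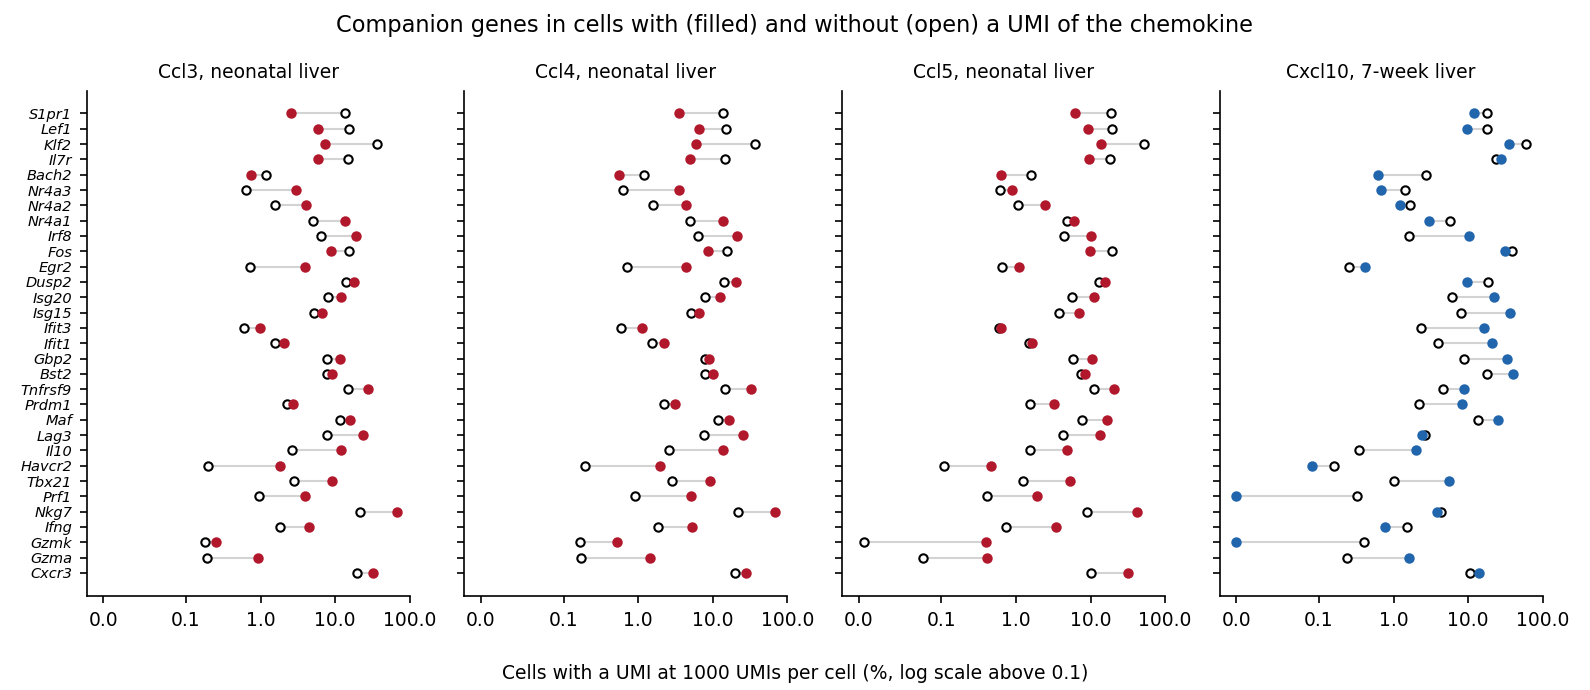
Share of cells with a UMI of each companion gene at 1000 UMIs per cell (percent, log axis above 0.1), in cells with (filled) and without (open) a UMI of the chemokine, for each chemokine in the library where most cells held it. Resting genes such as Klf2 are lower beside the 3 CC ligands, and Isg15, Ifit1 and Ifit3 are higher beside Cxcl10.

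The genes with the most similar pattern over single cells were ranked by Pearson's r of ln(1 + counts per 10000), a description that shares library and depth per cell, with the members ranked apart. For Ccl3 over the 5668 cells of neonatal liver they were Nkg7 (r = 0.25), Il10 (0.24), Angptl2 (0.20), Bcl2a1d (0.19) and Rgs16 (0.18), beside the members Ccl4 (0.56) and Ccl5 (0.23). In neonatal spleen r with Ccl4 was 0.49 and with Il10 0.27. For Ccl4 they were Angptl2 (0.27), Il10 (0.26), Nkg7 (0.25), Bcl2a1b (0.24) and Bcl2a1d (0.23). For Ccl5 they were AW112010 (0.54), Nkg7 (0.51), Gzmb (0.44), Ly6a (0.43) and Gimap7 (0.42), and in 7-week spleen these values were between 0.13 and 0.25. For Cxcl10 over the 2424 cells of 7-week liver they were Iigp1 (0.34), Isg15 (0.32), Rsad2 (0.31), Ifit3 (0.30) and Gbp10 (0.30), while r with Ccl5 was 0.01. In the other libraries r of Cxcl10 with these 5 genes was between -0.008 (Iigp1, neonatal spleen) and 0.20 (Rsad2, 7-week spleen). In such sparse counts the weaker of these values are no finding.

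Among 34 chemokine ligand genes measured, of 35 listed, the 4 members held 98.5%, 91.0%, 92.5% and 84.5% of the ligand UMIs of the 4 libraries. These are shares of UMIs, which tag each transcript at its 5' end and were not scaled by length. Ccl5 alone held 88.8%, 86.1%, 80.4% and 76.3% in that order, and Cxcl10 held 0.410%, 1.56%, 10.8% and 6.57%. No other ligand reached 25 CPM in any library, and between 13 and 18 of the 34 were at 0 in each.

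Some receptors of the members were also measured. Cxcr3 stood at 265, 101, 142 and 77.2 CPM and was thus highest in neonatal liver, where its ligand Cxcl10 was low. Ccr3 stood at 23.9, 7.21, 22.4 and 4.27 CPM, and Ccr1 stayed under 1 CPM in all 4 libraries.

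Over a list of 22 receptors, 3 of 7 at 25 CPM or more exceeded neonatal spleen at least 2-fold in neonatal liver, namely Cxcr6, Ccr2 and Cxcr3, beside 2.59% of all genes tested. At 7 weeks 2 of 9 were higher in liver, Cxcr6 and Ccr2, beside 1.41%, and 1 was lower, Ccr8, beside 0.477%. Between neonatal and 7-week liver 2 of 9 were higher, Ccr8 and Cxcr6, beside 4.66%, and 2 were lower, Ccr6 and Cxcr4, beside 4.95%. In the spleen pair none of 7 was at least 2-fold higher, beside 2.18%. Cxcr6, the receptor of liver-resident lymphocytes for Cxcl16, stood at 132, 19.5, 39.3 and 6.05 CPM, with the libraries in the same order as for Ccl5. Ccr2 stood at 92.4, 27.3, 123 and 30.5 CPM and Ccr8 at 147, 83.6, 22.5 and 49.2 CPM. The other receptors at 25 CPM or more in some library, Ccr4, Ccr6, Ccr7, Ccrl2, Cxcr4 and Cxcr5, ranged from 2.53 to 271 CPM.

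Macrophages, dendritic cells and cytotoxic lymphocytes also make these ligands, so their markers were examined. Cells with UMIs of 2 or more of 12 macrophage markers numbered 13, 85, 3 and 33, and the summed markers stood at 12.2, 33.3, 5.46 and 18.7 CPM, higher in spleen than in liver at each age. In neonatal liver 3 of the 221 Ccl3 cells were among the 13, which contained 27.5% of the library's Ccl3 (308 UMIs) and 17.5% of its Ccl4 (646 UMIs), with 306 and 613 of these UMIs in the highest cell described above. The summed macrophage markers stood at 30.8 CPM in Ccl3 cells and 11.3 CPM in other cells, with 3 of 12 at 0, and Cd68 made up 28 of their UMIs. Lyz2 was found in 1 Ccl3 cell and in no Ccl4 cell. In Ccl4 cells of neonatal liver the summed markers stood at 29.6 against 11.3 CPM, and 8.93% held Cd68 against 2.68% of others. In neonatal spleen they stood at 31.0 against 33.3 CPM. Among the 11 Ccl4 cells of each 7-week library they stood at 353 against 2.75 CPM (liver) and 296 against 17.9 CPM (spleen). In 7-week spleen, cells with 2 or more such markers held 9 of the 42 Ccl4 UMIs. The part of macrophage RNA in Ccl4 was not tested.

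The 10 markers of CD8 or innate-like lymphocytes stood at 138 CPM in Ccl3 cells and 32.0 CPM in other cells of neonatal liver, with 2 of 10 at 0, and at 191 against 29.0 CPM for Ccl4, with 1 of 10 at 0. Most came from a few cells: 7 Ccl3 cells held Tyrobp, 7 held Fcer1g and 1 held Cd8a. Cd8b1 went the other way, in 1.81% of Ccl3 cells against 4.63% of the others, and 0.253% against 1.13% at 1000 UMIs. For Ccl4 its shares were 2.68% against 4.59%, and 0.432% against 1.12% at 1000 UMIs. By library these markers stood at 37.1, 39.1, 23.6 and 32.8 CPM. The 6 B cell markers stood at 72.7, 41.6, 32.2 and 25.6 CPM and the 6 dendritic cell markers at 5.69, 2.07, 0.137 and 1.24 CPM, both highest in neonatal liver. Without all cells holding 2 or more markers of another lineage, the ratio of neonatal liver to neonatal spleen was 12.6 for Ccl3 and 13.4 for Ccl4. In the 94 Cxcl10 cells of 7-week liver all 12 macrophage markers and all 6 dendritic cell markers were at 0. In neonatal spleen 5 of the 50 Cxcl10 cells (10.0%) held 2 or more macrophage markers, against 1.31% of other cells, and the summed markers stood at 436 against 28.7 CPM. In 7-week spleen they stood at 52.9 against 18.1 CPM, and in neonatal liver at 5.69 against 12.4 CPM. The part of macrophage RNA in the spleen values of Cxcl10 was not tested.

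The highest cells held T cell RNA. All 10 highest Ccl3 cells of neonatal liver held Cd3e, Il10 and Ikzf2, a transcription factor of Treg cells, 9 held Gzmb and 8 held Foxp3. Of the 10 highest Ccl4 cells there all held Cd3e, 9 held Il10 and 7 held Foxp3. Of the 10 highest cells of either gene, 1 held 2 or more macrophage markers, and 1 of the 10 highest Ccl3 cells held Cd8b1. Of the 10 highest Cxcl10 cells of 7-week liver, 10 held Foxp3, 9 held Cd3e and 5 held Tnf, an inflammatory cytokine. Of the 10 highest Ccl5 cells there, 5 held Foxp3, 10 held Cd3e and 6 held Gzmb, and 1 held Lyz2. The highest of them, with 96 Ccl5 UMIs, held 2 or more macrophage markers.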

How the data were processed

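The deposited values are counts of UMIs for each gene in each barcode. Per the file headers they come from Cell Ranger 4.0.0, and the build was mm10 per the submitters' processing notes, which also name Seurat 4.0.2. The annotation release and the counting options are not given in the sources used here. From these counts, barcodes with 500 genes or more and 10% or less mitochondrial UMIs were used. Counts were summed per library and given as CPM, and shares of cells at 1000 UMIs were computed exactly from the hypergeometric distribution. No doublet caller was run, and leaving out the 5% of cells with the most UMIs was an alternative. Python 3.11.15, NumPy 2.4.6, SciPy 1.17.1, pandas 2.3.3 and, for TMM factors, edgeR 4.0.16 in R 4.3.3 were used. The fold rule was tested on simulated library sums, which do not model UMIs concentrated in few cells. The thinning formula was compared with a random draw from the measured Ccl5 counts of neonatal liver. Genes were grouped in lists and classes by UMI detection, without clustering.

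The members and lists were chosen with earlier results of these data known. Named genes were the members, ligands and receptors at 25 CPM or more, up to 3 companions per list with the highest ratio among those in 20 or more cells, and the 5 most correlated genes. Some listed genes are not reported here and were taken out of every list, and the class of resting cells by Ccr7 and Lef1 was set after seeing the data. With 1 library per group no test was made. Precision is that of the counts, at 7324692 to 32848460 UMIs per library.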

Additional observations from a re-analysis of the deposited data

Results flagged for a closer look

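Signal of the members was present in barcodes that the cell filter left out, which enter no comparison. In neonatal liver, 1.05% of 2387 such barcodes held Ccl3, 1.93% held Ccl4, 47.8% held Ccl5 and 0.335% held Cxcl10, each above the 0.126% that a count of 0 allows. Ccl5 stood at 1371 CPM in them, close to the 1490 CPM of the cells used, with 1.71 UMIs per barcode that held it. In neonatal spleen 5.90% of 1542 held Ccl5. In 7-week liver 16.8% of 184 held Ccl5 and 3.26% held Cxcl10. The source of these UMIs was not tested.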

How the results depend on the processing

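Counts of members past 2-fold changed by more than 1.5 times under 2 alternatives. Without the 10 highest cells of each gene, 1 instead of 2 members was higher in 7-week liver than in 7-week spleen, and 0 instead of 1 was lower in neonatal than in 7-week liver, since Cxcl10 then missed 25 CPM. With a floor of 5 CPM, 2 instead of 1 were higher and 1 instead of 0 was lower in neonatal than in 7-week spleen, by the construction of that floor. With cells with a Foxp3 UMI only, and again without the 10 highest cells, Ccl3 in neonatal liver missed 25 CPM, so 2 instead of 3 members were higher there than in neonatal spleen or 7-week liver. These and the rest, 100 recomputed counts, were within 1.5 times the first value. Every member's ratio kept its direction under all alternatives that gave a value, among them all deposited barcodes, a stricter filter, cells with a Foxp3 UMI, other totals and TMM scaling, whose factors were between 0.988 and 1.01. Of 177 recomputed ratios 135 lay inside the first interval and 42 outside it. Without the 10 highest cells, Ccl4 was 301-fold higher in neonatal than in 7-week liver, on 1 UMI in the latter, and 14.7-fold higher in neonatal than in 7-week spleen, also on 1 UMI. For Cxcl10 the same change gave 2.75 for neonatal liver over neonatal spleen and 3.68-fold lower in neonatal than in 7-week spleen. Without the highest cell of each library, neonatal liver exceeded 7-week liver 32.9-fold for Ccl4 and 191-fold for Ccl3, the latter on 1 UMI at 7 weeks. Other alternatives gave 58.9 (cells with a Foxp3 UMI) to 152 for that Ccl3 ratio, and up to 21.0 for Ccl3 in neonatal over 7-week spleen (without cycling cells), on 2 UMIs at 7 weeks. Leaving out the single highest cell was chosen after seeing the data. No paired analysis was possible because each group has 1 library. Depth limits Ccl3 at 7 weeks, with 2 and 3 UMIs.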
